A study of Sus scrofa with 80 samples.

Results

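The renal pelvis of an adult Göttingen minipig was compared with the kidney of the same animal. The animal was a 2-year-old male. Its renal pelvis was hybridised to 1 array and its kidney to 8 arrays that the labels call technical repeats. Genes were kept where the renal pelvis array lay 2-fold or more outside the whole range of the 8 kidney repeats. This left 1906 of 23722 genes (8.03% of all genes), of which 955 were higher in renal pelvis (4.03%) and 951 were lower (4.01%). The series holds 80 one-color arrays of minipig tissues. Beside the kidney repeats, it holds 8 kidneys of younger animals, 1 male and 1 female each at 1 week, 4 weeks, 2 months and 4 months of age. It also holds 7 other tissues of the same 2-year-old male, namely liver, spleen, bone marrow, testis, brain cortex, cerebellum and hypothalamus. All animals were untreated. According to the labels, this male was raised away from the breeder for its later life, on another feed, and was killed with another pentobarbital product than the younger animals. Age, housing and animal cannot be told apart between the male and the younger kidneys.

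The renal pelvis is the funnel in which urine collects before it enters the ureter. Its wall holds a lining of urothelium, connective tissue and smooth muscle, and it encloses the tip of the renal medulla. The kidney cortex holds the glomeruli, in which podocytes form the filter, and most of the proximal tubule, which takes back glucose, phosphate and amino acids. The medulla holds the thin limbs and the thick ascending limb of the loop of Henle, which build up the salt gradient, and the collecting ducts, which use it to take back water. Cells of the inner medulla accumulate organic osmolytes such as sorbitol. The labels do not state how the renal pelvis was cut from the kidney.

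Levels are given on a log2 scale after background correction and quantile normalization, so that a difference of 1 is a 2-fold change. For each gene the value on the renal pelvis array is given first, then the lowest, median and highest of the 8 repeats. With 1 tissue sample on each side no test is possible, and the repeats measure array error, not the spread between animals. By the rule a kept gene cannot overlap with the repeats, so a lack of overlap stated below is no further support. The median SD of a gene over the repeats was 0.115, and the repeats spanned more than 2-fold in 1310 genes (5.52%). Repeats 5 to 8 shared a slide with the renal pelvis array and repeats 1 to 4 did not. The renal pelvis array was slightly brighter, with 58.4% of gene spots well above background against 52.7% to 56.7% on the repeats. The design names of some probes mark them as open to cross-hybridization. Among the genes below this holds for all probes of RHCG, GSN, FABP4, S100B, UCHL1, SSTR5, CYP2D25, CYP2D6, EGF, NFAT5, VWF, ABCB1, CXCL1 and IGFBP3, and for other genes where stated. Probes differ in brightness, so levels are compared between arrays for 1 gene and never between genes.

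Across genes the renal pelvis array correlated with each repeat at r = 0.967 to 0.968 and with the younger kidneys at r = 0.955 to 0.971. Pairs of repeats correlated at r = 0.995 to 0.996, and the other tissues of the male with the renal pelvis at r = 0.755 to 0.916. These are correlations across genes on shared probes, and genes are not independent replicates. Of the 955 higher genes, 177 lay beyond 4-fold and 47 beyond 8-fold. Of the 951 lower genes, 302 lay beyond 4-fold and 85 beyond 8-fold. The median size of the difference from the mean of the repeats was 1.52 for the higher genes and 1.68 for the lower genes. At the edge of the rule, SYNE2 was kept at 1.0013 above the highest repeat and ACSL4 was not kept at 0.9994 above it. On the lower side ANGPTL5 was kept at -1.0009 from the lowest repeat and RAB3IL1 was not kept at -0.9982 from it.

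**Figure D1:**
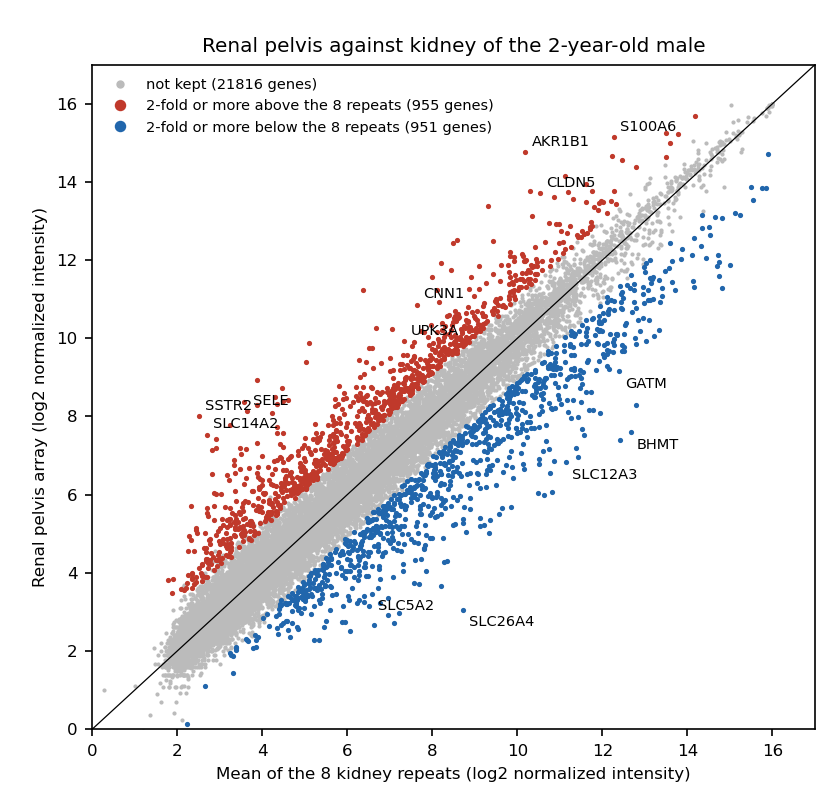
Level of every gene on the renal pelvis array (vertical axis, log2) against the mean of the 8 kidney repeats (horizontal axis, log2). Colored points are the 955 genes kept as higher and the 951 kept as lower, and the grey points are the rest of the 23722 genes.

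The kept genes were sorted with marker lists of nephron segments, medulla, stroma and urothelium. Of the 107 nephron segment markers measured, 14 were higher and 37 were lower. Of the 16 medulla markers 5 were higher and 1 was lower, of the 129 stroma markers 30 were higher and 7 lower, and of the 55 urothelium markers 12 were higher and 0 lower. Some genes are in more than 1 list. The lists together account for 69 of the higher and 46 of the lower genes. The other 886 higher genes and the other 905 lower genes are in no list. For 158 of all higher genes the kidney, and for 144 of all lower genes the renal pelvis, was not well above background, so that the size of their difference is only a bound. Over all genes the median difference was -0.01, and 4.03% were higher and 4.01% lower. The list counts here and below are to be read beside these shares. Members and lists were chosen with earlier results of these data known, so the counts are a description and no test of enrichment.

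**Figure D2:**
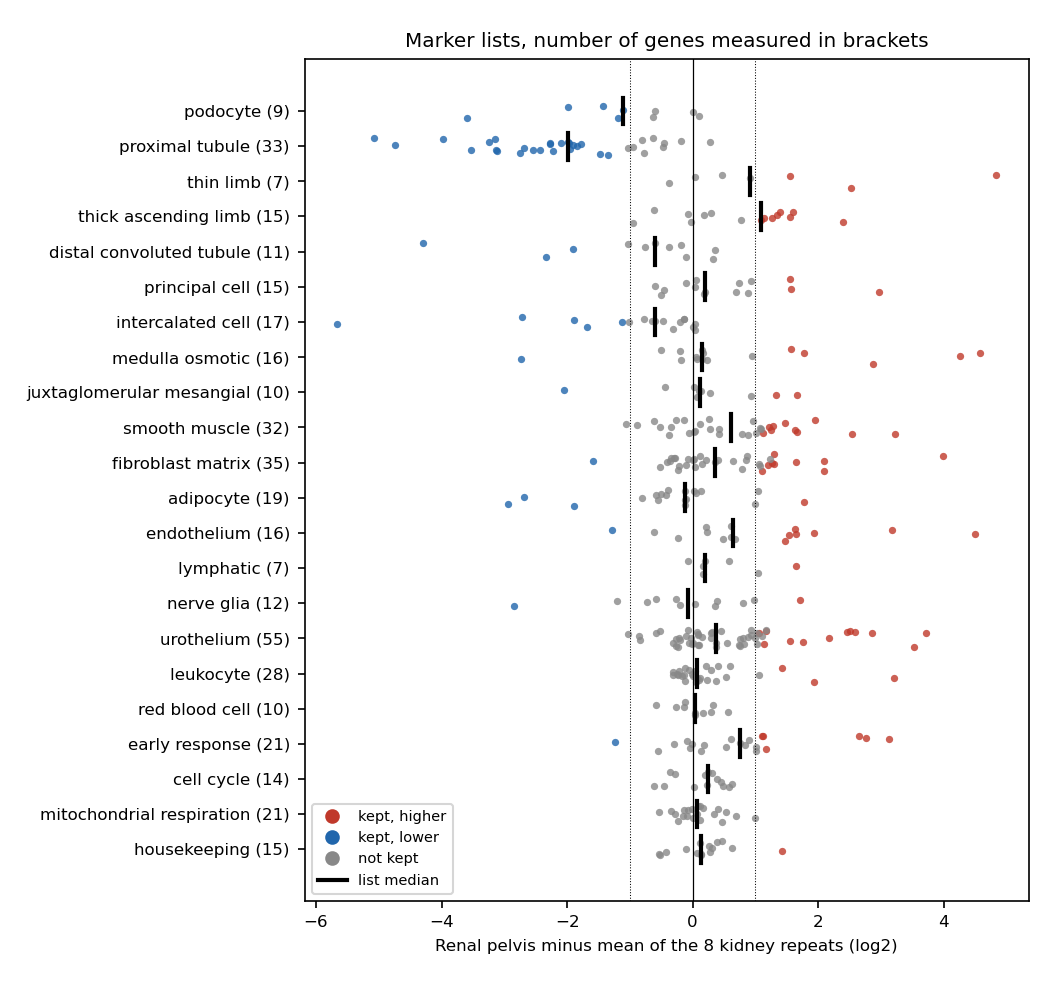
Difference of renal pelvis from the mean of the 8 kidney repeats (log2) for each measured marker, by list, with the median of each list as a line. Proximal tubule markers have the lowest median, -1.98, and thick ascending limb markers the highest, 1.09.

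Markers of the glomerulus and the proximal tubule were lower in renal pelvis. In bulk tissue, fewer cells of a type and less RNA per cell cannot be told apart, and this holds for each list here. Of 9 podocyte markers 5 were lower and 0 higher, with a median difference of -1.11. The transcription factor WT1, which podocytes need, was at 6.48 in renal pelvis and at 8.33, 8.48 and 8.59 in the repeats, 3.97-fold lower. The renal pelvis did not overlap with the repeats, and it was also 2-fold or more below the lowest of the 8 younger kidneys. CLIC5 was 2.28-fold and MAGI2 2.16-fold lower. PODXL, a surface sialomucin that endothelium also carries, was at 6.52 and lay inside the range of the repeats, 6.40 to 6.58.

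The proximal tubule had the largest number of lower markers among the lists, 24 of 33, with 0 higher and a median difference of -1.98. The mean level over the list was 6.82 in renal pelvis and 8.88 to 8.92 in the repeats. SLC34A1, the phosphate transporter of the brush border, was at 7.33 in renal pelvis and at 9.53, 9.55 and 9.57 in the repeats, 4.65-fold lower. The endocytic receptor LRP2 (megalin) was at 9.20 against 11.39, 11.47 and 11.54, 4.84-fold lower. SLC5A2, which takes back most filtered glucose, was at 3.46 against 6.48, 6.57 and 6.68. It was not well above background in renal pelvis, and the kidney was at least 8.70-fold higher. In none of these genes did the groups overlap.

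The largest differences in the list were in metabolic enzymes. BHMT, which methylates homocysteine with betaine, was at 7.59 against 12.57, 12.68 and 12.73, 33.7-fold lower. DPYS, a pyrimidine-degrading enzyme, was at 6.08 against 10.77, 10.81 and 10.89, 26.8-fold lower. The bicarbonate cotransporter SLC4A4 was 11.6-fold, GATM of creatine synthesis 9.44-fold and the urate and phosphate transporter SLC17A1 15.8-fold lower. Of the 33 markers, 15 were kept against the repeats and also 2-fold or more below the lowest younger kidney. Over all genes, 1.17% lay 2-fold or more below the lowest and 1.5% above the highest younger kidney. Such counts in each list are to be read beside these shares, and the same renal pelvis array enters both comparisons. SLC13A1, a sulfate transporter, was at 13.56 against 13.68, 13.74 and 13.78 and was not kept. Its probes were as bright in cerebellum, at 13.90. The design name of both BHMT probes and of all 4 SLC34A1 probes marks them as open to cross-hybridization, and so for both SLC13A1 probes.

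Among the 20 named genes with the largest lower differences, the dipeptidase DPEP1 was 16.0-fold, the glutamine transporter SLC38A3 16.1-fold and the organic anion pump ABCC2 15.8-fold lower. HAO1, a glycolate oxidase, was at 7.68 against 11.48, 11.53 and 11.58, and CNDP1, a carnosine-splitting enzyme, at 4.06 against 7.75, 7.86 and 7.90. CYP2D25 was at 8.29 against 12.76, 12.79 and 12.84, 22.7-fold lower. It is a member of a family of near-identical cytochrome P450 genes, and its probes may not tell it from CYP2D6, which was 21.9-fold lower.

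The loop of Henle went the other way. Of 15 thick ascending limb markers 8 were higher and 0 lower, with a median difference of 1.09, and of 7 thin limb markers 3 were higher and 0 lower, with a median of 0.91. SLC12A1, the salt cotransporter that loop diuretics block, was at 12.04 in renal pelvis and at 10.41, 10.43 and 10.51 in the repeats, 3.02-fold higher. The potassium channel KCNJ1 was at 12.98 against 11.67, 11.72 and 11.79, 2.39-fold higher. PPP1R1A, a phosphatase inhibitor, was at 12.21 against 9.79, 9.82 and 9.86, 5.25-fold higher. The renal pelvis lay above all 8 repeats in each, and for PPP1R1A it was also 1.83 above the highest of the other 79 arrays. PTGER3, IRX2, CASR and ESRRB were 2.12 to 2.63-fold higher. CLDN16, a tight junction protein of this segment, was at 7.01 against 6.66, 6.71 and 6.80, and EGF was at 5.81 against 6.37, 6.43 and 6.52, and neither was kept. Of the 8 higher members, 2 were also 2-fold or more above the highest younger kidney, and the younger kidneys reached 11.13 for SLC12A1 and 12.25 for KCNJ1.

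All probes of SLC12A1 and of PPP1R1A are marked as open to cross-hybridization, and without such probes 5 thick ascending limb markers were higher. Genes with no other probe, such as these, are then not measured, so the lower count is not a set of failed calls. Median scaling in place of quantile normalization, under which these genes are still measured, also gave 5.

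SLC14A2 had the clearest separation of all genes named here from every other array. It encodes the urea transporters of the inner medullary collecting duct and the descending thin limb, which recycle urea. It was at 7.53 in renal pelvis and at 2.41, 2.71 and 3.02 in the repeats, where it was well above background on 0 of 8 arrays, so that it was at least 18.8-fold higher. The 8 younger kidneys lay between 2.31 and 3.89. The renal pelvis was 3.64 above the highest of the other 79 arrays. SPTSSB, a subunit of the enzyme that starts sphingolipid synthesis, was at 6.88 against 4.22, 4.34 and 4.53. The water channel AQP1, which the proximal tubule shares, was at 8.23 against 8.14, 8.17 and 8.39 and overlapped with the repeats.

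The distal convoluted tubule and the intercalated cells, which secrete acid or base, had lower markers and no higher ones. SLC12A3, the thiazide-sensitive salt cotransporter of the distal convoluted tubule, was at 6.84 in renal pelvis and at 11.06, 11.14 and 11.20 in the repeats, 19.7-fold lower. With EMX1 (5.03-fold lower) and PTH1R (3.73-fold lower), it was 1 of 3 lower members among 11, with a median of -0.59. All 3 were also 2-fold or more below the lowest younger kidney. Of 17 intercalated cell markers 5 were lower, with a median of -0.60. SLC26A4 (pendrin), the bicarbonate exchanger of the base-secreting cells, was at 3.05 against 8.66, 8.72 and 8.79. It was not well above background in renal pelvis, and the kidney was at least 47.5-fold higher. The ammonia channel RHCG was at 8.32 against 10.98, 11.03 and 11.09, 6.58-fold lower, and the proton pump subunit ATP6V1B1 was 3.72-fold lower. Of the 5 lower members, 1, SLC26A4, was also 2-fold or more below the lowest younger kidney. ATP6V0D2, another pump subunit, was at 8.94 against 8.77, 8.90 and 9.00 and overlapped with the repeats.

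Among principal cell markers 3 of 15 were higher and 0 lower, with a median difference of 0.20. The vasopressin-regulated water channel AQP2 was at 10.24 in renal pelvis and at 8.59, 8.65 and 8.78 in the repeats, 2.96-fold higher. The basolateral water channel AQP3, which urothelium also expresses, was at 9.17 against 7.53, 7.59 and 7.76, 2.94-fold higher. The transcription factor ELF5 was at 8.77 against 5.66, 5.81 and 5.91, 7.87-fold higher. All 3 lay above every repeat, and AQP2 and ELF5 were also 2-fold or more above the highest younger kidney. The sodium channel subunit SCNN1B was at 9.26 against 9.75, 9.76 and 9.78, and HSD11B2, which shields the mineralocorticoid receptor from cortisol, at 13.87 against 14.29, 14.32 and 14.37. Both lay below all repeats by less than 2-fold.

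**Figure D3:**
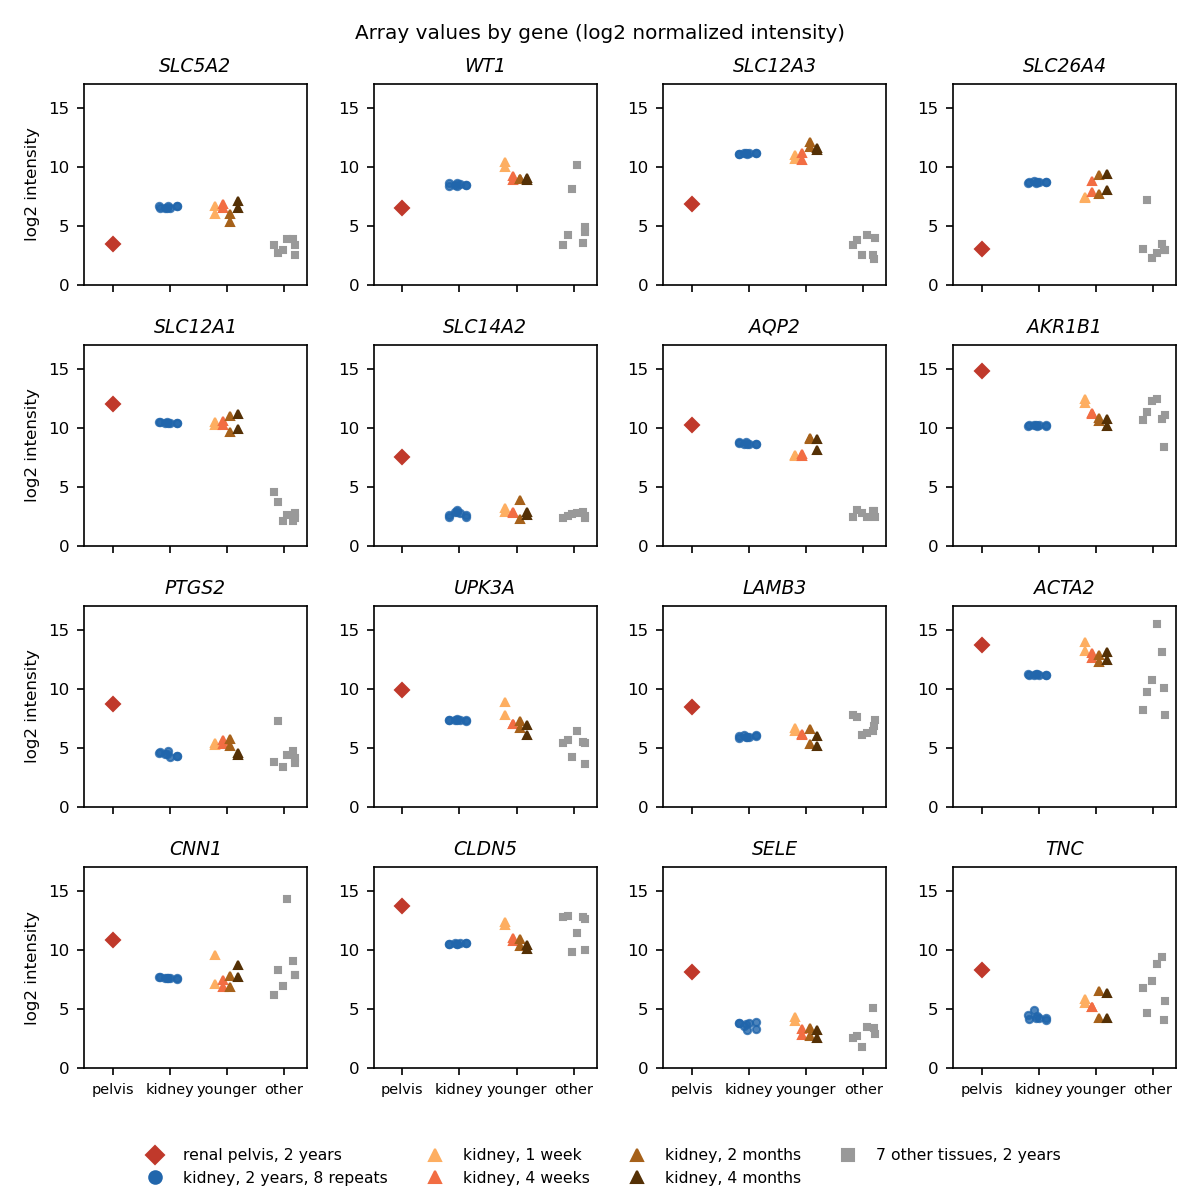
Levels (log2) of 16 genes on the renal pelvis array, the 8 kidney repeats, the 8 younger kidneys by age and the 7 other tissues of the male. SLC5A2, WT1, SLC12A3 and SLC26A4 sit below all repeats in renal pelvis, and SLC14A2, at 7.53, sits above every other array.

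Medulla markers were mixed, with 5 of 16 higher, 1 lower and a median difference of 0.16. AKR1B1, the aldose reductase that makes sorbitol, was at 14.77 in renal pelvis and at 10.12, 10.20 and 10.22 in the repeats, 24.0-fold higher. PTGS2, an inducible cyclooxygenase of interstitial cells and the macula densa, was at 8.72 against 4.22, 4.46 and 4.70, 19.1-fold higher. The calcium-binding protein S100A6 was at 15.14 against 12.26, 12.27 and 12.29, 7.31-fold higher. By the rule the renal pelvis and the repeats did not overlap in these genes. Each was also 2-fold or more above the highest younger kidney. AKR1B1 was 1.58 and S100A6 2.37 above the highest of the other 79 arrays. The amino acid transporter SLC38A2 was 2.97-fold higher. The other higher member was UCP1, which is also in the adipocyte list and so does not mark the medulla alone. GPC3, a cell surface proteoglycan, was the lower member, at 6.53 against 9.20, 9.27 and 9.29. NFAT5, the transcription factor that switches on osmolyte genes under salt stress, was at 5.95 and inside the range of the repeats, 5.57 to 6.14. The betaine transporter SLC6A12 was at 3.61 against 3.18, 3.77 and 4.60 and was not well above background in renal pelvis.

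Of 10 markers of juxtaglomerular and mesangial cells 2 were higher and 1 was lower, with a median difference of 0.12. PDGFRB, a growth factor receptor of mesangial cells and pericytes, was at 10.78 in renal pelvis and at 9.36, 9.47 and 9.55 in the repeats, 2.50-fold higher, and lay above all repeats. The other higher member was DES, which is also in the smooth muscle list. Differences in the list ran from -2.05 to 1.66. The lower member was also 2-fold or more below the lowest younger kidney, while 0 of the higher members lay 2-fold or more above the highest.

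Some smooth muscle, matrix and endothelial markers were higher, and most were not kept. Of 32 smooth muscle markers 10 were higher and 0 lower, with a median difference of 0.61. Calponin, CNN1, was at 10.86 in renal pelvis and at 7.57, 7.63 and 7.69 in the repeats, 9.38-fold higher. Smooth muscle actin, ACTA2, was at 13.74 against 11.15, 11.20 and 11.26, 5.79-fold higher. Desmin, DES, was at 11.61 against 9.85, 9.92 and 10.09, 3.17-fold higher. The repeats lay below the renal pelvis in all 3. The younger kidneys reached 13.96 for ACTA2, above the renal pelvis, and 9.59 for CNN1, below it. The spleen of the male was higher than the renal pelvis for each of them. The myosin light chain MYL9 was at 11.21 against 11.12, 11.18 and 11.24 and overlapped with the repeats. Of the 10 higher members, CNN1 and PGM5 were also 2-fold or more above the highest younger kidney.

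Of 35 fibroblast and matrix markers 9 were higher and 1 was lower, with a median difference of 0.36. Tenascin C, TNC, a matrix glycoprotein, was at 8.32 in renal pelvis and at 4.08, 4.23 and 4.89 in the repeats, 15.9-fold higher. The proteoglycan BGN was at 14.56 against 12.42, 12.48 and 12.52, 4.26-fold higher. GSN, ASPN and DCN were 2.30 to 4.26-fold higher. None of the repeats reached the renal pelvis for these genes, but of the 9 higher members 1, TNC, also lay 2-fold or more above the highest younger kidney. The collagen genes COL1A2, at 9.47 against 8.39, 8.58 and 8.90, and COL3A1, at 9.51 against 8.37, 8.48 and 8.53, were not kept. Both were highest in the bone marrow of the male among its tissues. SFRP2, a secreted Wnt antagonist, was the lower member, 3.01-fold.

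Of 16 endothelial markers 7 were higher and 1 was lower, with a median difference of 0.65. E-selectin, SELE, which activated endothelium displays to bind leukocytes, was at 8.14 in renal pelvis and at 3.25, 3.76 and 3.85 in the repeats. It was well above background on 0 of 8 repeats and at least 22.2-fold higher, and it was 3.04 above the highest of the other 79 arrays. The tight junction gene CLDN5 was at 13.71 against 10.49, 10.54 and 10.59, 9.02-fold higher, with all 4 probes marked as open to cross-hybridization. ESAM, NOS3, CDH5 and CD34 were 2.89 to 3.82-fold higher. KDR, a receptor for vascular endothelial growth factor, was at 5.52 against 6.73, 6.81 and 6.88, 2.43-fold lower. PECAM1, at 8.49 against 8.23, 8.28 and 8.32, and VWF, at 5.35 against 5.77, 5.97 and 6.13, were not kept. Of the 7 higher members, SELE and CLDN5 were also 2-fold or more above the highest younger kidney.

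Smaller stroma lists gave few kept genes, to be read beside 4.03% of all genes higher and 4.01% lower. PROX1, a transcription factor of lymphatic endothelium, was at 6.87 against 4.99, 5.24 and 5.44 and was the higher member among 7 lymphatic markers. S100B was the higher and UCHL1 the lower member among 12 nerve and glia markers (8.33% each way). Fat of the renal sinus would be marked by ADIPOQ, which was at 3.23 in renal pelvis and at 3.19, 3.34 and 3.54 in the repeats, not well above background on any of these arrays, while the bone marrow of the male was at 12.79. Of 19 adipocyte markers 3 were lower, namely the lipid enzymes SCD (7.69-fold) and GPD1 (6.47-fold) and the fatty acid carrier FABP4 (3.72-fold). The 1 higher member (5.26% of the list) was UCP1, which is also in the medulla list and so does not mark fat alone.

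The label was checked against the urothelium, the lining that defines the renal pelvis. Of 55 urothelium markers 12 were higher and 0 lower, with a median difference of 0.37, and the mean level over the list was 6.97 in renal pelvis and 6.28 to 6.35 in the repeats. Uroplakin 3A, UPK3A, which is part of the membrane plaques of urothelial surface cells, was at 9.93 in renal pelvis and at 7.30, 7.33 and 7.40 in the repeats, 6.03-fold higher. The mucin MUC4 was at 7.03 against 3.32, 3.45 and 3.76, 11.6-fold higher, and was well above background on 3 of 8 repeats. Neither gene overlapped with the repeats. UPK3A was 1.02 above the highest of the other 79 arrays, and all probes of UPK3A and MUC4 are marked as open to cross-hybridization. LAMB3, a laminin chain of the basement membrane, was 5.68-fold higher. FOXA1, a transcription factor of urothelial differentiation, was at 6.39 against 3.66, 3.87 and 4.56, and was well above background on 1 of 8 repeats. IVL, KLF5, EHF, AQP3, CD9, KRT19 and ITGB4 were also higher.

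The other uroplakins were not kept. UPK1A was at 6.77 against 5.76, 5.95 and 6.09, and UPK2 at 4.94 against 4.95, 5.16 and 5.46. UPK1B was at 4.25 against 2.86, 3.06 and 3.38, and was well above background on 0 of 8 repeats. Of the basal cell markers, the keratin KRT5 was at 3.05 against 2.24, 2.38 and 4.49, and TP63 was at 3.51 against 3.18, 3.43 and 3.60. KRT20 of the surface cells was at 2.53 against 2.52, 2.66 and 3.01. KRT5 and KRT20 were not well above background in renal pelvis, and TP63 overlapped with the repeats. GATA3, which principal cells also express, was at 11.23 against 10.27, 10.29 and 10.33 and lay just short of the rule. Among the uroplakins, KRT5, TP63 and KRT20, only UPK3A was thus higher by the rule in the tissue labelled renal pelvis. The others were near background, inside the range of the repeats or short of the rule. KRT19, a higher marker at 8.66, lay below the highest younger kidney, at 9.42. Of the 12 higher markers 6 were also 2-fold or more above the highest younger kidney. Without the probes open to cross-hybridization 10 markers were higher, but UPK3A and MUC4 are then not measured.

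**Figure D4:**
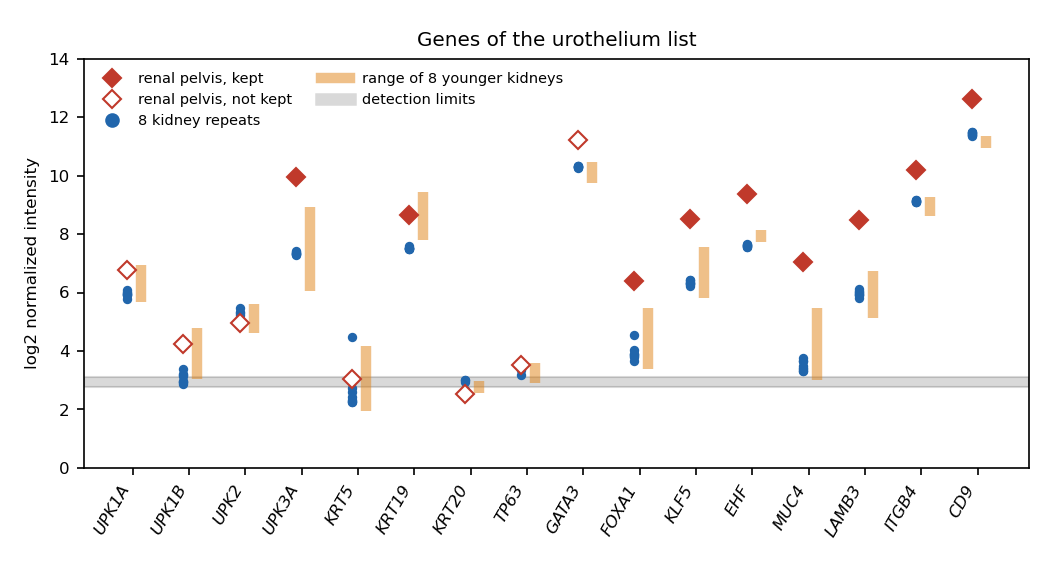
Levels (log2) of 16 urothelium markers on the renal pelvis array (filled where the gene was kept, open where it was not), with the 8 kidney repeats, the range of the 8 younger kidneys as bars and the detection limits as a grey band. UPK3A and LAMB3 stand clear of all kidneys, while KRT5 and KRT20 lie near the band.

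Markers of blood cells and early response genes were measured beside these lists. The mean level over 28 leukocyte markers was 5.59 in renal pelvis and 5.24 to 5.34 in the repeats. Of these markers 3 were higher (10.7%, against 4.03% of all genes). LYZ, lysozyme, was at 7.57 against 4.19, 4.33 and 4.50, and CSF1R and CD74 were 3.84-fold and 2.70-fold higher. The pan-leukocyte marker PTPRC was at 5.15 against 4.42, 4.63 and 4.72 and was not kept. The 10 red blood cell markers had a mean of 5.35 against 5.18 to 5.39, and 0 were kept. Of 21 early response genes, which cells induce within minutes of a stimulus, 6 were higher and 1 was lower, with a median difference of 0.75. FOS was at 11.24 against 8.07, 8.12 and 8.17, 8.72-fold higher, DUSP1 was 6.79-fold and EGR1 6.29-fold higher, and SOCS3 was 2.35-fold lower. The younger kidneys were lower still for FOS, at 4.86 to 6.33. These genes moved with the stroma, medulla and urothelium markers, and their part in those differences was not tested. Of 14 cell cycle and 21 mitochondrial respiration markers 0 were kept.

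**Figure D5:**
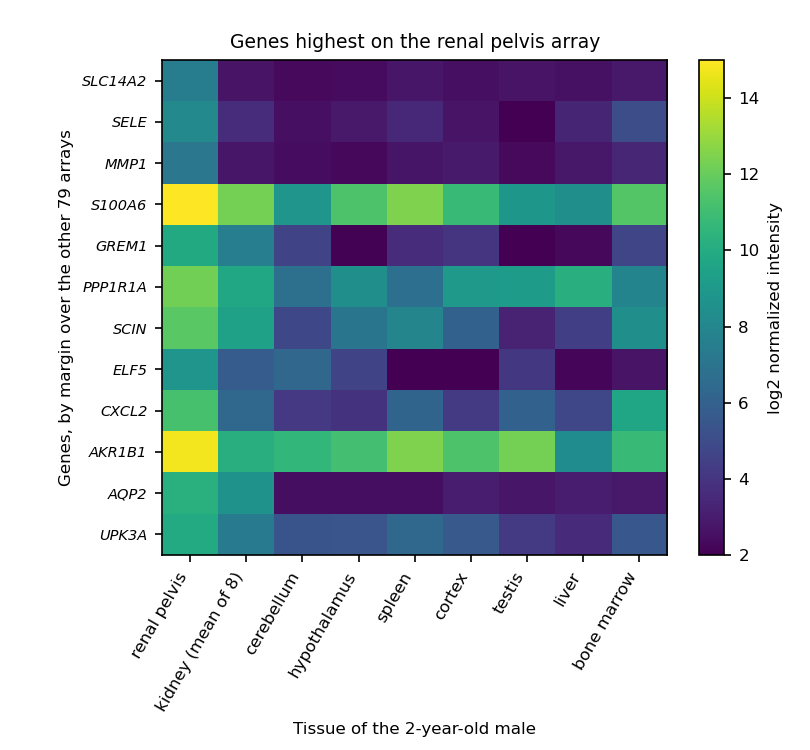
Levels (log2, color) of 12 of the 41 genes that were 2-fold or more higher in renal pelvis than on every other array, across the 9 tissues of the 2-year-old male. The renal pelvis holds the highest level for each gene.

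The kidneys of younger animals, which the rule did not use, gave a second reference. Of the 955 higher genes, 293 (30.7%) were also 2-fold or more above the highest of the 8 younger kidneys, which held for 1.5% of all genes. Of the 951 lower genes, 257 (27.0%) were also 2-fold or more below the lowest, against 1.17% of all genes. In 943 of the 955 higher genes the renal pelvis lay above the median of the younger kidneys, and in 907 of the 951 lower genes below it. The same shares over all genes were not counted, and the rule itself raises both, so these counts are a description only. Of the kept genes, 0 were 2-fold beyond the younger kidneys in the opposite direction, a count that the rule itself keeps low. The share differed between kidneys. The renal pelvis was 2-fold or more above the 1-week male kidney for 444 of the higher genes (46.5%, and 4.33% of all genes) and above the 4-month male kidney for 800 (83.8%, and 7.98% of all genes). For the lower genes it was 2-fold or more below the 1-week male kidney for 371 (39.0%, and 4.76% of all genes) and below the 4-month male kidney for 743 (78.1%, and 7.27% of all genes). The same renal pelvis array enters both comparisons, so they are not independent.

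Set among the tissues of the same male, the renal pelvis had the highest level for 264 of the 955 higher genes (27.6%), against 5.59% of all genes. The bone marrow was highest for 187 (19.6%), against 11.1% of all genes, and the spleen for 160 (16.8%), against 13.2%. Of the 951 lower genes the kidney was highest for 437 (46%), against 6.94% of all genes, and the liver for 281 (29.5%), against 16.9% of all genes. The rule itself raises the share of the renal pelvis among the higher genes and of the kidney among the lower genes, so these shares are a description only. In 41 genes (0.173% of all genes) the renal pelvis was 2-fold or more above each of the other 79 arrays, and 31 of them had a symbol. The largest margins were in SLC14A2 and SELE, followed by MMP1, a collagenase, at 2.53. S100A6, the bone morphogenetic protein antagonist GREM1 (1.88), PPP1R1A, the actin-severing protein SCIN (1.76), ELF5 (1.63) and the chemokine CXCL2 (1.60) followed. No gene was 2-fold or more below all other arrays.

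Among the 20 named genes with the largest higher differences, the somatostatin receptor SSTR2 was at 8.01 in renal pelvis and at 2.14, 2.42 and 2.85 in the repeats, and SSTR5 was at 7.42 against 2.68, 2.92 and 3.15. Neither was well above background on any repeat, and they were at least 26.2-fold and at least 17.5-fold higher. The cerebellum of the male was higher than the renal pelvis for both. Endothelin 3, EDN3, was at 9.89 against 4.97, 5.12 and 5.17, 27.9-fold higher, and the opioid precursor PENK was at least 14.8-fold higher. CXCL2 was at 11.23 against 6.19, 6.39 and 6.44, 29.1-fold higher. MMP1 was at 7.14 against 2.51, 2.86 and 3.20, at least 14.4-fold higher. These genes had no overlap with the repeats and were also 2-fold or more above the highest younger kidney. MOXD1, a monooxygenase homolog, was at least 33.7-fold higher than the repeats, at 8.94 against 3.72, 3.88 and 4.00, but the younger kidneys reached 9.70. DIO2, which activates thyroid hormone, was at 10.26 against 6.53, 6.70 and 6.77, 12.0-fold higher.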

How the data were processed

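RNA of minipig tissues was hybridised to custom one-color Agilent arrays with 62976 spots, of which 61289 are gene spots and 308 negative controls. The authors deposited scanner files of spot intensity from Agilent Feature Extraction 11.5.1.1, not normalized, and a table of processed log2 values of 49280 rows, whose columns correlated with the log2 processed signal at r = 0.997 and had a median of 4.57. The study's methods name robust multi-array background correction, quantile normalization and averages per gene. The deposited log2 table has a row per array feature, the sources used here do not say at which of these steps it was written, and it was used as an alternative only.

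Median spot intensities were background-corrected (normexp, offset 0, on gene and negative control spots), quantile-normalized over 80 arrays and log2-transformed with limma 3.58.1 in R 4.3.3. Flagged spots were left out. Repeated spots were averaged per probe and probes per gene. The files name 12891 genes by symbol and 10831 by accession, of which 3019 matched RefSeq and 1648 received a symbol. The detection limit was the 95th percentile of negative controls. An at-least fold sets the bright mean against the higher of the dim value and the lowest signal well above background. Spots were called well above background by the scanner software. Probes marked as open to cross-hybridization carry that mark in their design name, as read here.

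With 1 tissue sample per side, no test was run. The 8 kidney arrays are technical repeats from 1 animal, so permuting 1 against 8 arrays would not compare independent samples. The limit is 1 tissue sample per side and 1 animal, not the number of arrays. Named genes were the first 3 of each list, up to 6 kept members of a list in each direction, the 20 largest named differences in each direction and the 10 largest margins over all other arrays. Further list members (SLC13A1, MYL9, SCNN1B, HSD11B2, EGF, CASR, ESRRB, ATP6V0D2, KRT5, KRT20, TP63, GATA3, KLF5, EHF, CD9, KRT19, ITGB4) and the 4 genes at the edge of the rule were named after their values were seen. Some genes that this rule selects are not reported here, but they stay in the counts and medians. Members and lists were chosen with earlier results of these data known. Alternatives were the processed signal scaled at the 75th percentile, a normexp offset of 50, median scaling, the 9 arrays alone, a detection filter, the median of probes, flagged spots kept, same-slide repeats, the mean of repeats, folds of 1.5 and 4, the deposited table, and each repeat left out. Leaving out the cross-hybridization probes was added after seeing the data. Of the per-sample columns, 0 were unmapped.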

Additional observations from a re-analysis of the deposited data

Results flagged for a closer look

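In 7 of the 159 named values, 1 of the 8 kidney repeats stood apart from the others by more than Dixon's 95% critical value for the gap to the nearest repeat over the whole range. Chance flags about 1 in 20 groups. AQP1 was at 8.39 on repeat 6 and at 8.14 to 8.20 on the others, and the difference of renal pelvis from the repeats was 0.04 with and 0.07 without it. CXCL2 was at 6.19 on repeat 2 and at 6.33 to 6.44 on the others (4.86 with, 4.84 without). FLT4, a lymphatic receptor, was at 5.08 on repeat 5 and at 5.37 to 5.52 on the others (0.16 with, 0.11 without). FOXA1 was at 4.56 on repeat 3 and at 3.66 to 4.03 on the others (2.45 with, 2.54 without). HEPACAM2, an intercalated cell marker, was at 7.31 on repeat 1 and at 7.38 to 7.41 on the others (-1.68 with, -1.69 without). SLC2A2, a glucose transporter of the proximal tubule, was at 6.55 on repeat 7 and at 6.35 to 6.43 on the others (-3.15 with, -3.13 without), and since it was not well above background in renal pelvis this difference is a bound. TPM2, a tropomyosin of smooth muscle, was at 8.60 on repeat 7 and at 8.68 to 8.74 on the others (1.48 with, 1.47 without). The flagged values lie on 6 of the 8 repeats, and in none of these genes did leaving out the repeat change the direction of the difference.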

How the results depend on the processing

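No gene kept as higher or lower moved to the other side of the repeats under the alternatives tried, where it could still be computed. The 15 counts given in the report (kept genes, kept members of 10 lists, genes beyond the younger kidneys and genes above all arrays) stayed within 1.5 times of their value under the processed signal, same-slide repeats, the detection filter, the median of probes, flagged spots kept and the deposited table, and so did the 12 that could be computed on the 9 arrays alone. A normexp offset of 50, which damps low values, gave 496 higher and 574 lower genes, 3 podocyte, 5 thick ascending limb, 5 smooth muscle and 4 fibroblast markers, 146 higher and 142 lower genes beyond the younger kidneys and 24 above all arrays. Median scaling gave 804 higher and 1174 lower genes and 5 thick ascending limb markers. Leaving out probes open to cross-hybridization, which drops genes with no other probe, gave 751 higher and 755 lower genes. Markers kept were then 17 proximal tubule, 4 podocyte, 5 thick ascending limb, 4 intercalated cell, 10 urothelium, 6 fibroblast and 6 endothelial. Beyond the younger kidneys lay 234 higher and 208 lower genes, and 31 lay above all arrays. Means in place of ranges gave 770 higher and 669 lower genes beyond the younger kidneys. A 4-fold rule gave 177 higher and 302 lower genes, 1 podocyte, 1 thick ascending limb, 1 principal cell, 2 intercalated cell, 3 medulla, 6 urothelium, 2 smooth muscle, 2 fibroblast and 2 endothelial markers, 43 and 54 genes beyond the younger kidneys and 6 above all arrays. A 1.5-fold rule gave 2019 and 1757 genes, 6 principal cell, 22 urothelium, 16 smooth muscle and 14 fibroblast markers, 692 and 519 genes beyond the younger kidneys and 92 above all arrays. Leaving out each repeat in turn gave 960 to 976 higher and 955 to 962 lower genes, 293 to 298 and 257 to 259 beyond the younger kidneys, 12 to 13 urothelium and 9 to 10 fibroblast markers, and left the others at 24 proximal tubule, 5 podocyte, 8 thick ascending limb, 3 principal cell, 5 intercalated cell, 5 medulla, 10 smooth muscle and 7 endothelial markers and 41 genes above all arrays. Scaling moved the median difference of all genes to -0.19 with the processed signal and to -0.12 with median scaling, so differences near 0 take their sign from the scaling. No paired analysis was possible because the renal pelvis is 1 array. Another animal was not measured for renal pelvis, so that nothing here gives the spread between animals.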

Other observations

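Gene families were counted by the start of their symbols, a choice made after the data were seen, beside 4.03% of all genes higher and 4.01% lower. Of 294 genes with symbols that start with SLC, most of them solute carriers, 14 were higher and 51 lower, with a median difference of -0.15. These counts include SLC9A3R1 (-1.83, lower) and SLC9A3R2 (1.51, higher), which are not solute carriers. Of 52 cytochrome P450 genes (CYP) 2 were higher and 10 lower, and of 9 glucuronosyltransferases (UGT) 4 were lower and 0 higher. Among these 4, all probes of UGT1A4, UGT1A7 and UGT1A9 are marked as open to cross-hybridization and may not tell these genes apart. Among 37 ABC transporters the drug efflux pumps ABCB1 (2.36) and ABCG2 (1.70) were among the 3 higher and ABCC2 was the lower one. Of 11 CXC chemokines (CXCL) 5 were higher and 0 lower, namely CXCL2, CXCL1 (at least 4.23-fold, since it was not well above background on any repeat), CXCL10 (1.80), CXCL9 (1.55) and CXCL14 (1.42). Of 6 insulin-like growth factor binding proteins IGFBP7 (1.76), IGFBP2 (1.51) and IGFBP6 (1.36) were higher and IGFBP3 was lower, at least 2.87-fold, since it was not well above background in renal pelvis. Of 16 S100 genes 5 were higher and 0 lower. Of 30 collagen genes 1 was higher, COL16A1 (1.94). Of 37 HOX genes HOXD4 (1.47) and HOXB9 (1.44) were higher and 0 lower. WNT4, a Wnt ligand of the kidney, was the 1 higher member of 15 WNT genes, at a difference of 2.88. It was well above background on 3 of 8 repeats. The 1-week kidneys were higher for it than the renal pelvis, at 8.00 and 8.05 against 7.28. The highest younger kidney also lay above the renal pelvis for IGFBP2, IGFBP6 and COL16A1, and below it for IGFBP7, HOXD4 and HOXB9. Values in parentheses without a unit are log2 differences from the mean of the repeats.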
